A study of Mus musculus with 9 samples.

Results

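Cytosolic ribosomal protein genes encode the proteins of the cytoplasmic ribosome, which joins a small and a large subunit and translates the mRNAs of the nucleus. The members were the protein coding rows of the deposited gene table whose symbol starts with Rpl or Rps followed by a digit or by p0, p1, p2 or a, without ribosomal S6 kinases (Rps6k) and without rows named as pseudogenes (-ps). The rule took 86 of 46517 rows, of which 52 were Rpl and 34 were Rps symbols. They comprised 31 small subunit genes, 43 large subunit genes, the 3 genes of the large subunit stalk (Rplp0, Rplp1 and Rplp2), 8 paralogs of other members, and Rps19bp1, which encodes a nucleolar partner of Rps19 and not a ribosomal protein.

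Each ribosome carries 1 copy of nearly every one of these proteins, so cells keep their production balanced. The mRNAs begin with a pyrimidine tract (5′ terminal oligopyrimidine, TOP) through which the kinase mTOR and its partner LARP1 set their translation. Synthesis of ribosomes takes a large share of the resources of dividing cells, and free Rpl5 and Rpl11 bind Mdm2 and thereby stabilise p53. Because ribosomal protein mRNAs are short, abundant and copied widely across the genome as processed pseudogenes, reads from one gene often match several rows of an annotation.

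The series holds 9 bulk RNA-seq libraries of primary mouse monocytes grown in vitro, all labelled wild type on a C57BL/6 background. They are 3 libraries each of patrolling monocytes (pMo), intermediate monocytes (intMo) and conventional monocytes (cMo), numbered 0 to 2. According to the series title, the pMos came from bone marrow cells cultured on OP9-DLL1, stromal cells made to express a Notch ligand, and the series description names cMos in the place of pMos. The sort gates are not stated in the sources used here. Whether the 3 libraries of a subset were separate cultures or animals is not labelled either, so p-values measure only the spread between these libraries, which may be technical. In bulk RNA, fewer cells of a type and less RNA per cell cannot be told apart.

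Library totals ran from 18455116 to 29985684 estimated counts, and 14059 genes passed the filter on low counts. The labels were set against marker genes: all 7 patrolling markers rose and all 5 conventional markers fell in pMos relative to cMos (edgeR, adjusted p under 0.05). Markers of other cells also differed between subsets. Summed stromal markers spanned 175 to 356 CPM (counts scaled to the library size) in pMos, 159 to 519 CPM in intMos and 8.06 to 15.7 CPM in cMos, and 7 of 8 rose in pMos relative to cMos. Summed cycling markers spanned 253 to 556 CPM in pMos, 272 to 1440 CPM in intMos and 2380 to 2530 CPM in cMos, and 8 of 8 fell in pMos relative to cMos. Granulocyte and progenitor markers summed to 94.9 to 103 CPM in pMos, 99.4 to 397 CPM in intMos and 1100 to 4460 CPM in cMos. Immediate early genes, which also respond to the handling of cells, summed to 2440, 913 and 842 CPM in the pMo libraries, 3080, 1020 and 1130 CPM in the intMo libraries and 374 to 459 CPM in cMos, and of 8 such genes 5 rose in pMos and 4 in intMos relative to cMos. Libraries numbered 0 stood apart from the other two of their subset: cMo 0 held the 4460 CPM of progenitor markers, against 1100 CPM in cMo 1 and in cMo 2, with 3250 CPM of conventional markers, against 6340 and 6110 CPM, and intMo 0 held 272 CPM of cycling markers, against 1440 and 1390 CPM. The part of these differences in the results below was not tested, and results that change without libraries 0 are given both ways.

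The results turn on a paralog pair, Rps27 and Rps27l, and on a few single genes, whose sequences are shown first. Rps27 encodes the zinc finger protein eS27 of the small subunit, and Rps27l encodes a close relative that is a known p53 target gene. Both coding sequences have 252 bases without the stop codon, and 60 of them differ (identity 76.2%). The longest run shared by the pair is 11 bases, so any longer read of the coding sequence holds a difference between them. The coding sequences below were read from GRCm38 with GENCODE M21 models, Rps27 on the minus strand of chr3:90212522-90213651 and Rps27l on the plus strand of chr9:66946086-66949516, and capitals mark the bases at which they differ.
Rps27: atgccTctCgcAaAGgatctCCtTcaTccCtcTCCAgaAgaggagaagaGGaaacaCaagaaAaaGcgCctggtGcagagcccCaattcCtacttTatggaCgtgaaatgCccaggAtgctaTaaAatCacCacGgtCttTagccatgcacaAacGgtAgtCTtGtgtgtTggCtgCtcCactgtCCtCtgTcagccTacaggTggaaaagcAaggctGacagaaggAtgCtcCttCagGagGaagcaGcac
Rps27l: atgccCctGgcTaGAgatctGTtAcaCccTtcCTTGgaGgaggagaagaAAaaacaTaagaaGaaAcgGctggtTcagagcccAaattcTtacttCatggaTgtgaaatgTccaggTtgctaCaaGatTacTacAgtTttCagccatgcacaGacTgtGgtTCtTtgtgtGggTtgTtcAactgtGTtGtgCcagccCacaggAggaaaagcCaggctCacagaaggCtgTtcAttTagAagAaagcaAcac
Another row, Rps27rt, has a coding sequence identical to that of Rps27 over all 252 bases, so counts of Rps27 and Rps27rt are uncertain.

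Promoters are shown for Rps2, Rps27, Rps27l, Rpl14 and Rpl3l, the called members with the largest changes. RefSeq sequences of GRCm38.p6 run from 80 bases before the annotated start to 20 bases after it. They lie on the plus strand at chr17:24719983-24720082 (Rps2), chr9:66946006-66946105 (Rps27l), chr9:120571437-120571536 (Rpl14) and chr17:24727746-24727845 (Rpl3l), and on the minus strand at chr3:90213629-90213728 (Rps27). Capitals mark matches, on either strand, to CTTTCC (a pyrimidine-rich hexamer), CCGGAAG (the core that ETS factors bind) or CCATNTT (the core that YY1 binds).
Rps2: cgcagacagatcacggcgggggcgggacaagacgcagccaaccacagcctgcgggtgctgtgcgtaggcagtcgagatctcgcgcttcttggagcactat
Rps27: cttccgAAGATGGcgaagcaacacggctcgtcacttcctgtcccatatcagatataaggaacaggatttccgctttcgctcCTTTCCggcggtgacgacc
Rps27l: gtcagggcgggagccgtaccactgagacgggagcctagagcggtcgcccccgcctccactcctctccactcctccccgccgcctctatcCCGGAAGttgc
Rpl14: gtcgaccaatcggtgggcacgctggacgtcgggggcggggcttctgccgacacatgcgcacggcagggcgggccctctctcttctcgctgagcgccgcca
Rpl3l: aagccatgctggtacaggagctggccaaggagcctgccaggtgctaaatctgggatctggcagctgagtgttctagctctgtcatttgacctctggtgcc
Rps27 has a CTTTCC match and a CCATNTT match on the opposite strand, Rps27l has a CCGGAAG match, and the windows shown for Rps2, Rpl14 and Rpl3l hold none of the 3. Over 300 bases (250 before the start and 50 after it), 66 members matched a RefSeq promoter. CTTTCC was present in 36 of the 66 (54.5%), against 29.3% of the promoters of 26959 other genes. CCGGAAG was present in 39.4% of member promoters and 9.86% of the others, and CCATNTT in 31.8% and 18.2%. Among 69 promoters of mitochondrial ribosomal protein genes, CCGGAAG was present in 37.7% and CCATNTT in 33.3%, shares close to those of the members, and CTTTCC in 30.4%. Both strands were searched, and a CCATNTT match may overlap a CTTTCC match. These matches describe the sequence only.

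As a group the members were abundant and close in level between subsets. They took 5.46, 5.41 and 5.23% of all counts in the 3 pMo libraries, 5.92, 6.23 and 5.76% in the intMo libraries, and 6.9, 5.66 and 6.68% in the cMo libraries. By these shares of unscaled totals, every pMo library lay below every library of the other subsets, and intMo and cMo libraries overlapped. On the TMM-scaled library sizes used for the tests, all 3 subsets overlapped. There the members summed to 56400, 56800 and 54300 CPM in pMos, 58500, 61600 and 56500 CPM in intMos, and 67300, 54100 and 66800 CPM in cMos. The means were 5.37 ± 0.119% in pMos, 5.97 ± 0.237% in intMos and 6.41 ± 0.663% in cMos (SD, n = 3 each). The ratio of Rpl to Rps counts was 1.266, 1.253 and 1.261 in the pMo libraries, 1.275, 1.218 and 1.271 in the intMo libraries and 1.247, 1.247 and 1.223 in the cMo libraries. Every pMo library lay above every cMo library, by little, and the intMo libraries overlapped with both. The mean ratio was 1.260 ± 0.007 in pMos and 1.239 ± 0.014 in cMos (SD, n = 3 each, p = 0.1 in a two-sided exact permutation test, the smallest this design allows).

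Of the 86 members, 84 passed the filter on low counts. The other 2 were Rpl10l and Rpl39l, paralogs known for expression in the testis. Rpl10l had 1 count in all libraries together, in an intMo library. Rpl39l had 9 counts over the 3 pMo libraries, 8 over the intMo libraries and 0 over the cMo libraries, where 0 allows up to 3 counts. Per transcript length, the highest mean levels over 9 libraries were 2130 CPM per kilobase for the stalk gene Rplp1, 1960 for Rpl13a and 1870 for the stalk gene Rplp0. In total 20 members averaged over 1000 CPM and 3 were under 3 CPM. The order of the levels was nearly the same in every subset: across the 84 tested members, Spearman's rho was 0.98 between pMo and cMo means and 0.99 for the other pairs of subsets. Genes are not independent replicates, and these correlations describe the libraries only. For 7 members (Rpl5, Rpl10, Rpl12, Rpl27, Rpl27a, Rps12 and Rps23) most counts of the sequence stood in rows of near-identical copies, so their values here are values of the row and not of the gene.

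**Figure D1:**
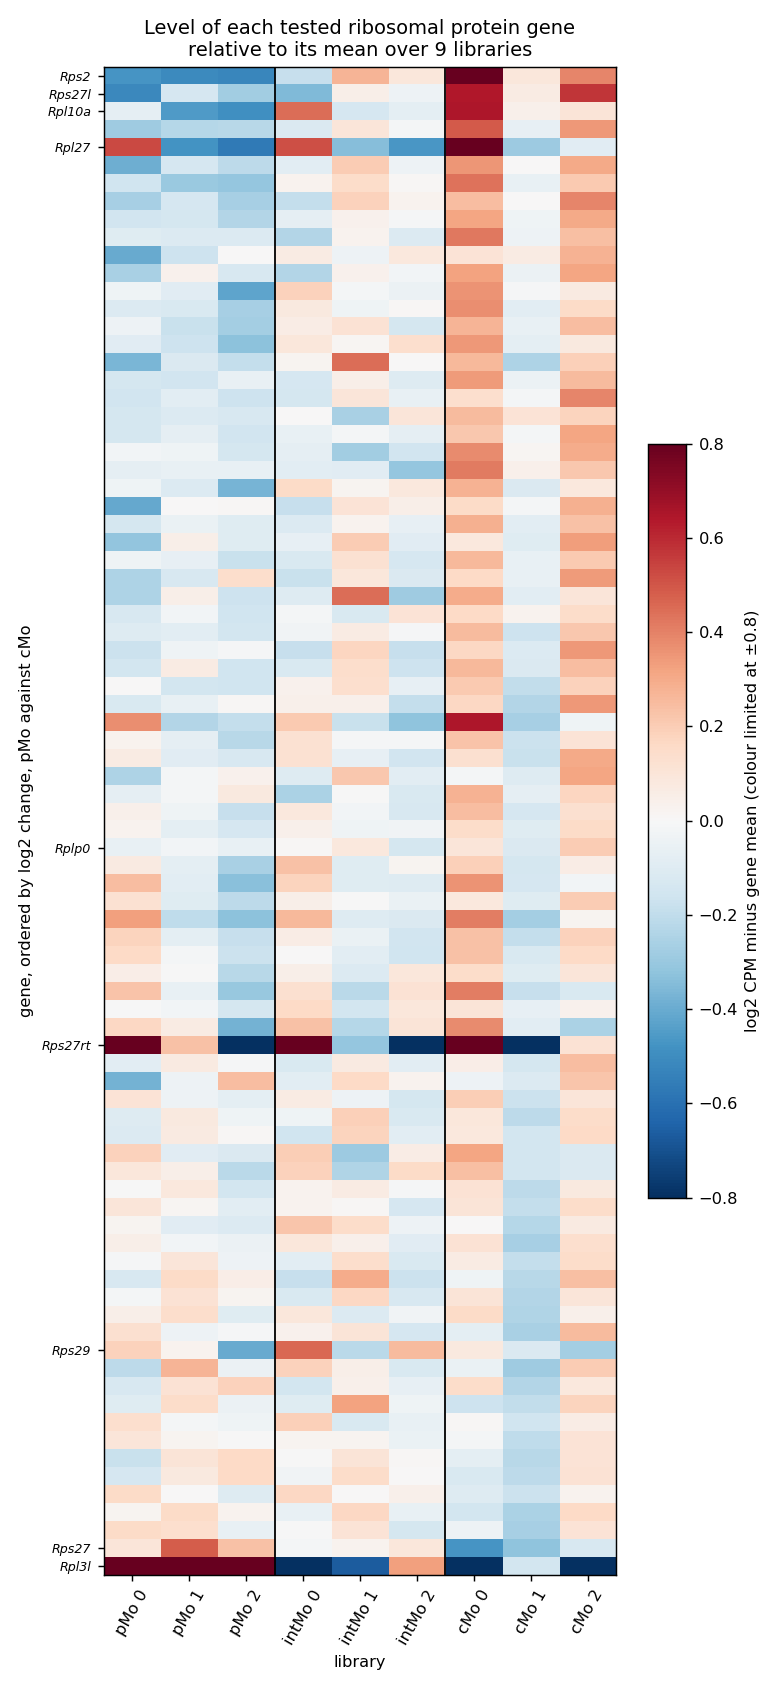
Level of each of the 84 tested members (rows, ordered by the log2 change of pMo against cMo, with a few genes of the text named) in each of the 9 libraries (columns), as log2 CPM minus the mean of the gene over all libraries, with colours limited at 0.8 either way. Most rows are pale in pMo and intMo columns, Rps2 is lowest in the pMo columns, Rps27 and Rpl3l at the foot are highest there, and cMo 0 holds most of the dark red cells.

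Patrolling against conventional monocytes, the most distant pair, showed a small lower level for most members and a clear change for a few. In this comparison 7 of the 84 tested members fell (among them Rps2, Rps27l, Rpl14, Rpl36a, Rpl3 and Rps20) and 2 rose (Rps27 and Rpl3l) in edgeR's quasi-likelihood test at an adjusted p under 0.05. Over all 14059 genes tested, 33.1% were called here, 17.2% higher and 15.9% lower. Leaving out 1 library at a time changed the number of members called lower to 14 without cMo 1, to 3 without intMo 2, to 2 without cMo 0, cMo 2, pMo 1 or pMo 2, and to 1 without pMo 0. Without pMo 1 the number called higher was 1. Over all genes, 2193 of 14331 were called lower without cMo 1 and 1571 of 14407 without pMo 0. When libraries were scaled by their totals only, 20 members were called lower and 2 higher, against 2741 and 2115 of all 14059 genes. The median log2 change of all genes then moved to -0.07, against 0.03 with TMM scaling. The median member log2 change was -0.14, with quartiles of -0.30 and -0.02, and 66 of 84 members lay below 0, against 48.4% of all tested genes. The pMo libraries lay below all cMo libraries for 20 members and above them for 2, while 23.5% and 26% of all tested genes were apart in those directions. The 95% interval of the change stayed within a log2 of 1, which is 2-fold, for 78 of 84 members (92.9%), against 45.7% of all genes. The median standard error was 0.14 for members and 0.24 for all genes.

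Rps2 encodes uS5, a small subunit protein near the path by which mRNA enters. Its levels were 1170, 1140 and 1130 CPM in the pMo libraries, 1430, 1960 and 1730 CPM in the intMo libraries and 2910, 1730 and 2130 CPM in the cMo libraries. All pMo libraries lay below every other library, and they differed little among themselves. In pMos Rps2 averaged 1150 ± 26 CPM, against 2260 ± 601 CPM in cMos (SD, n = 3 each), a log2 change of -0.98 with a standard error of 0.20 (edgeR adjusted p = 0.00512). The call held under all 20 alternatives, and with libraries 1 and 2 alone the change was -0.76 (edgeR adjusted p = 0.00268). The gene, at chr17:24718116-24721929, overlaps 2 small nucleolar RNA genes and the antisense gene Snhg9 in position. The strand setting of the counting is not given, and whether their transcripts share sequence with that of Rps2 was not examined.

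Rps27 was the abundant member that rose. It had 514, 672 and 565 CPM in the pMo libraries, 475, 488 and 510 CPM in the intMo libraries and 346, 384 and 438 CPM in the cMo libraries. Every pMo library lay above every intMo library, and every intMo library above every cMo library. The mean was 584 ± 80.8 CPM in pMos and 389 ± 46.3 CPM in cMos, a log2 change of 0.58 with a standard error of 0.14 (edgeR adjusted p = 0.0121). Without pMo library 1 the adjusted p was 0.0549. With libraries 1 and 2 alone the change was 0.60 (edgeR adjusted p = 0.00776).

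Its paralog Rps27l moved the other way. The 3 pMo libraries had 48.6, 63.2 and 57.2 CPM, the intMo libraries 54.3, 71.6 and 67.6 CPM, and the cMo libraries 108, 72.7 and 103 CPM. All cMo libraries were above all others, while pMo and intMo libraries overlapped. The change of pMos against cMos was -0.75 on the log2 scale with a standard error of 0.18 (edgeR adjusted p = 0.0133). Without pMo library 0 the adjusted p was 0.051, and with libraries 1 and 2 alone the change was -0.54 (edgeR adjusted p = 0.0313).

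As a share of the pair, Rps27l took 8.63, 8.59 and 9.19% of Rps27 plus Rps27l counts in the pMo libraries, 10.2, 12.8 and 11.7% in the intMo libraries, and 23.8, 15.9 and 19.1% in the cMo libraries. The 3 subsets did not overlap, with the lowest shares in pMos and the highest in cMos. The mean share was 8.81 ± 0.334% in pMos and 19.6 ± 3.94% in cMos (SD, n = 3 each). The log2 ratio of the paralog to its partner differed by -1.32 between pMos and cMos, by -0.44 between pMos and intMos and by -0.88 between intMos and cMos. Each difference had p = 0.1 in a two-sided exact permutation test, which is the smallest p that 3 libraries against 3 allow. Adjusted over the 18 comparisons made in 6 pairs, each exact permutation p was 0.257. In this pair, and in that of Rpl3 and Rpl3l, both partners were called in pMos against cMos, in opposite directions.

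**Figure D2:**
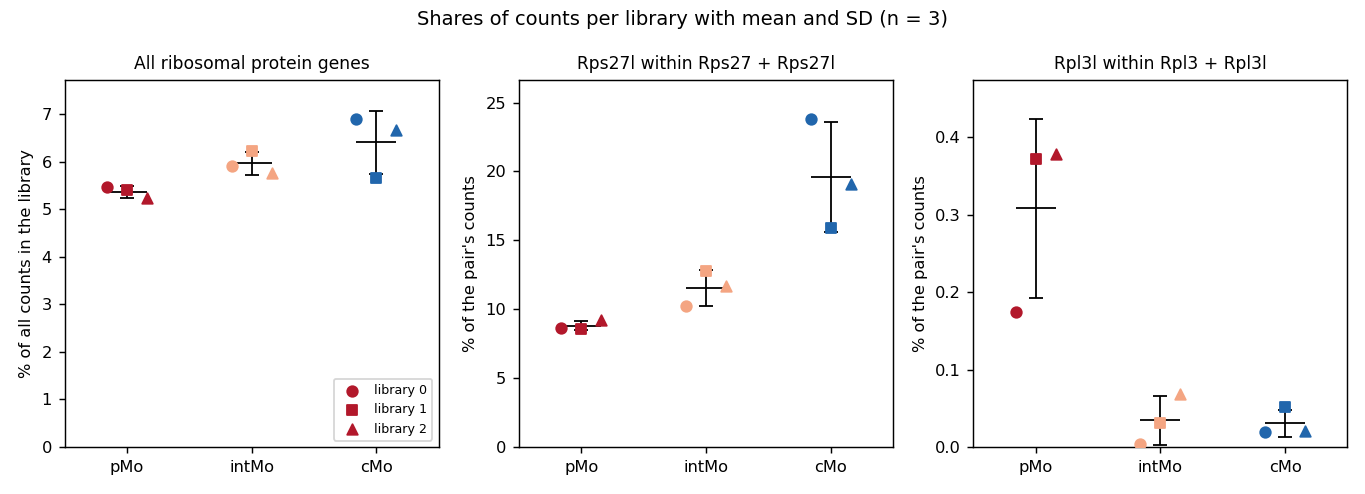
Percent of all counts taken by the ribosomal protein genes (left), and percent of a paralog pair's counts taken by Rps27l (middle) and by Rpl3l (right), in each library of pMo, intMo and cMo. Symbols mark libraries 0, 1 and 2, and lines mark the mean and SD of 3 libraries. The Rps27l share is 8.59 to 9.19% in pMos and 15.9 to 23.8% in cMos, and the Rpl3l share stays under 0.4% throughout.

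Rpl3l rose and its partner Rpl3 fell. Rpl3 encodes uL3, a large subunit protein next to the peptidyl transferase centre, and Rpl3l is a paralog known from heart and skeletal muscle. Rpl3l had 2.14, 4.17 and 4.15 CPM in the pMo libraries, 0.0536, 0.467 and 0.928 CPM in the intMo libraries and 0.36, 0.668 and 0.324 CPM in the cMo libraries. The pMo libraries were above all others, at a level that is low for a ribosomal protein: 344 counts over all 9 libraries. The log2 change of pMos against cMos was 2.94 with a standard error of 0.68 (edgeR adjusted p = 0.0104), and the call held under all 20 alternatives.

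Rpl3 had 1220, 1110 and 1100 CPM in the pMo libraries, 1390, 1510 and 1370 CPM in the intMo libraries and 1840, 1310 and 1580 CPM in the cMo libraries. The pMo libraries were again below all others, and intMo and cMo libraries overlapped. The change against cMos was -0.46 with a standard error of 0.14 (edgeR adjusted p = 0.0324). Rpl3l took 0.308 ± 0.116% of the pair's counts in pMos, 0.0342 ± 0.0321% in intMos and 0.0304 ± 0.0179% in cMos (SD, n = 3 each), so Rpl3 carried nearly all counts of the pair in every subset. Rpl3l lies on chromosome 17, 5890 bases beyond the end of Rps2 and on the same strand, with 1 annotated gene between them. Rpl3 overlaps Syngr1 and several small RNA genes.

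**Figure D3:**
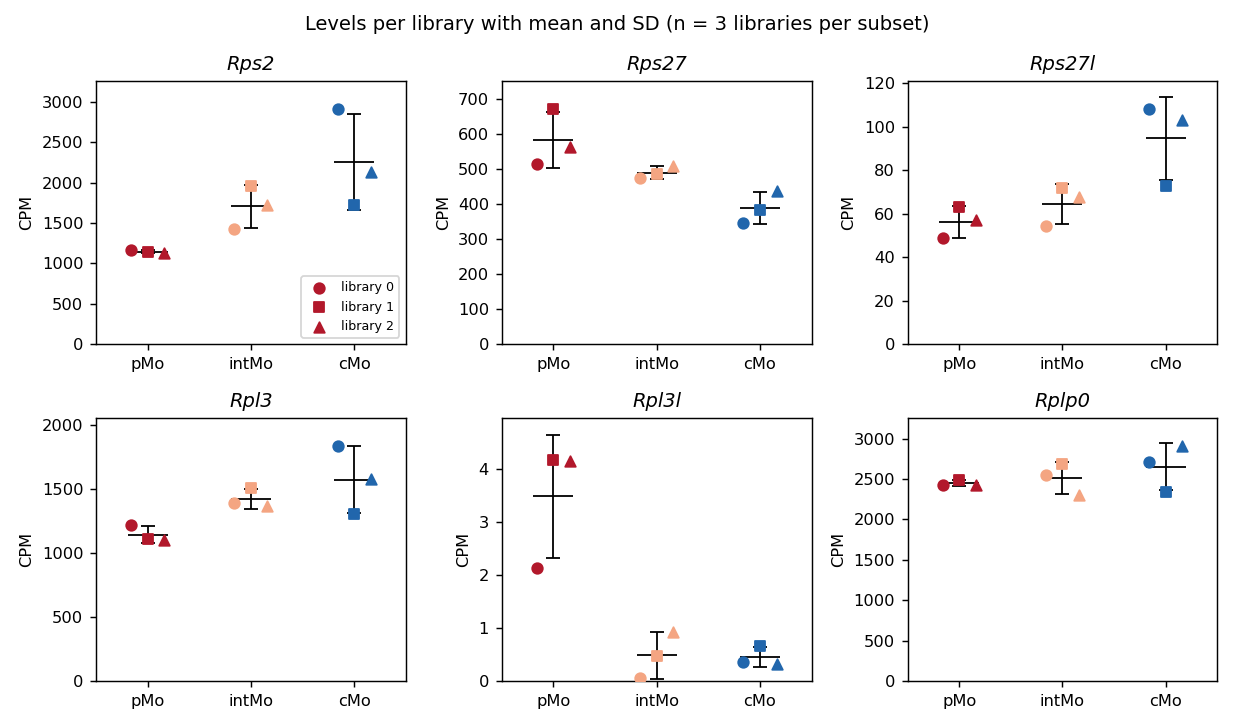
Levels in CPM of Rps2, Rps27, Rps27l, Rpl3, Rpl3l and the stalk gene Rplp0 in each library of pMo, intMo and cMo, with the mean and SD of 3 libraries, on axes that start at 0. Rps2 sits at 1130 to 1170 CPM in pMos and at 1730 to 2910 CPM in cMos, Rps27 and Rpl3l are highest in pMos, and the Rplp0 values of the subsets overlap.

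Rpl14, Rpl36a and Rps20 fell by less. Rpl14, of the large subunit, had 561, 584 and 586 CPM in the pMo libraries, 632, 732 and 677 CPM in the intMo libraries and 962, 654 and 869 CPM in the cMo libraries, a log2 change of pMos against cMos of -0.52 with a standard error of 0.15 (edgeR adjusted p = 0.0269). Rpl36a, also of the large subunit, averaged 141 ± 13 CPM in pMos, against 195 ± 25 CPM in cMos (log2 change -0.47, edgeR adjusted p = 0.0325). Rps20, of the head of the small subunit, averaged 409 ± 21.8 CPM in pMos, against 558 ± 74.4 CPM in cMos (log2 change -0.45, edgeR adjusted p = 0.0411). All pMo libraries lay below all cMo libraries for each of the 3. These calls and that of Rpl3 were less firm than those of Rps2, Rps27, Rps27l and Rpl3l: over the 20 alternatives the call held in 14 for Rpl14, 13 for Rpl3, 12 for Rpl36a and 11 for Rps20. With libraries 1 and 2 alone, Rpl3 had an edgeR adjusted p of 0.0466, and Rpl14, Rpl36a and Rps20 had 0.0765, 0.106 and 0.0631. Rpl10a, of the large subunit, had a larger change (-0.61, standard error 0.22) that missed the threshold (edgeR adjusted p = 0.0608). It had 376, 289 and 281 CPM in the pMo libraries and 618, 406 and 424 CPM in the cMo libraries, and libraries 1 and 2 alone gave -0.54 (edgeR adjusted p = 0.00445). The row of Rpl10a held 51.7% of the counts of its family, and with its copy Rpl10a-ps1 added the change was -0.35 (edgeR adjusted p = 0.0679).

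The 9 members taken up here as stalk genes or for known roles did not pass the test in this comparison. Rplp0, the scaffold of the stalk and a common reference gene, had 2430, 2490 and 2430 CPM in the pMo libraries, 2550, 2690 and 2300 CPM in the intMo libraries and 2710, 2340 and 2910 CPM in the cMo libraries. The subsets overlapped, and the change of pMos against cMos was -0.12 with a 95% interval of -0.39 to 0.15. The intervals were -0.58 to 0.06 for Rplp1 and -0.54 to 0.30 for Rplp2, the acidic stalk proteins. Rpl13a, which in human monocytes acts in a complex that blocks translation of inflammatory mRNAs, averaged 1410 ± 87.3 CPM in pMos and 1590 ± 238 CPM in cMos (interval -0.49 to 0.13). Rps6, the substrate of the S6 kinases, had an interval of -0.55 to 0.12, and Rpsa, also known as a laminin receptor, one of -0.53 to 0.06. Rps19, the gene most often mutated in Diamond-Blackfan anaemia, had an interval of -0.42 to 0.21. For Rpl5 and Rpl11, whose proteins bind Mdm2, the interval was -0.59 to 0.01 for the row of Rpl5 and -0.63 to 0.39 for that of Rpl11. With near-identical copies added, which hold most counts of Rpl5 and nearly as many as the row of Rpl11, the changes were -0.21 (edgeR adjusted p = 0.318) and -0.04 (edgeR adjusted p = 0.844). None of these 9 intervals reached a log2 of 1 in either direction, and a p that misses the threshold does not show that levels were equal. The highest changes after Rps27 among members of at least 10 CPM were 0.14 for Rpl26, 0.14 for Rpl34 and 0.10 for Rpl23, all of the large subunit and none called.

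**Figure D4:**
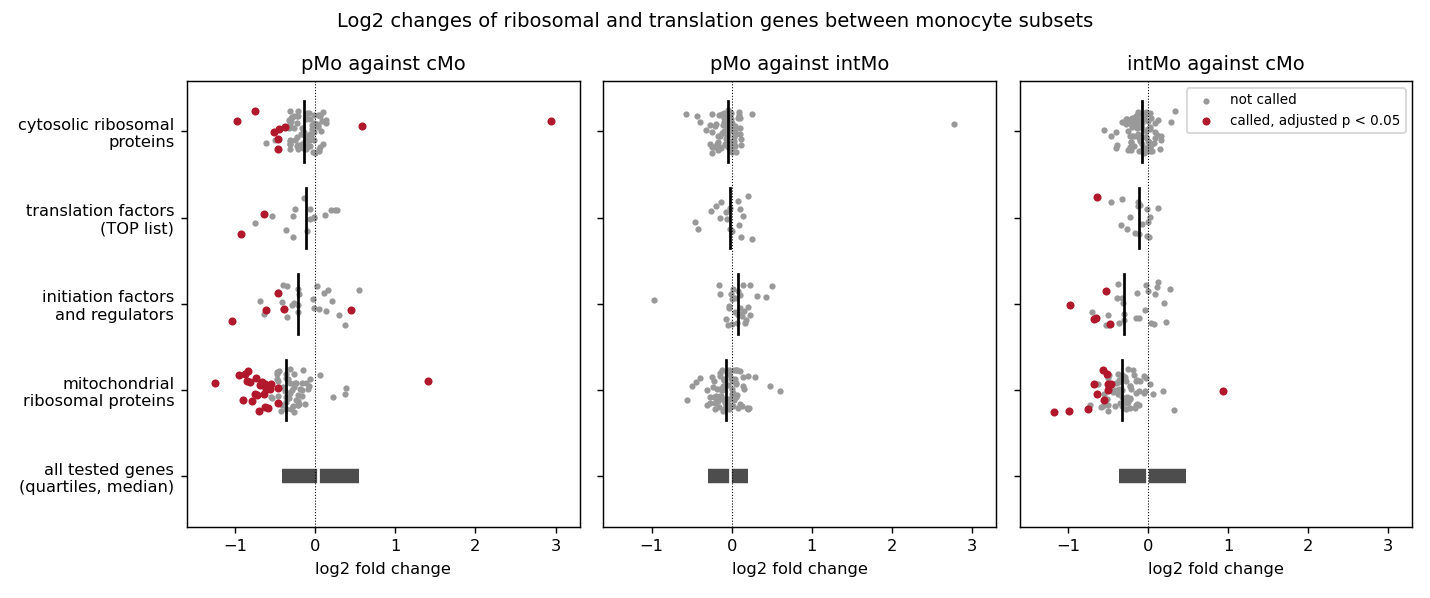
Log2 fold change of each gene of the cytosolic ribosomal proteins, of the translation factor lists and of the mitochondrial ribosomal proteins, for pMo against cMo, pMo against intMo and intMo against cMo. Points are genes (dark red where called at an edgeR adjusted p under 0.05), black lines are list medians, and the grey bar spans the quartiles of all 14059 tested genes with a white line at their median. Cytosolic members lie close to 0 with medians of -0.14, -0.05 and -0.08, and mitochondrial ribosomal proteins have medians of -0.37, -0.08 and -0.33.

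Patrolling against intermediate monocytes showed no called member in the main fit, which did not pair libraries by number. In this comparison 0 of 84 members rose and 0 fell in edgeR's test, where 4.99% of all tested genes were called (3.29% higher and 1.69% lower, 463 and 238 genes; 383 and 310 with library totals only). At an unadjusted p under 0.05 there were 2 of 84 members, against 2619 of all 14059 tested genes. DESeq2 called 1 member higher, Rpl3l, where it called 741 of 14724 genes higher. With the replicate number as a block, edgeR called 1 member higher (Rpl3l), and over all genes 507 higher and 329 lower. Without cMo 0 it called 1 member higher (Rpl3l) and 1 lower (Rps2), where 650 of 14328 genes were called higher and 457 lower. Without intMo 0 it called 1 member higher (Rpl3l), where 424 of 14377 genes were called higher and 433 lower. The median change was -0.05, with quartiles of -0.12 and 0.02, and 60 of 84 members lay below 0, against 51.7% of all genes. The interval stayed within a log2 of 1 for 80 members (95.2%), against 57.1% of all genes. The pMo libraries lay below all intMo libraries for 11 members and above them for 3, against 12.9% and 14.8% of all tested genes.

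Rpl3l had a log2 change of 2.78 with a standard error of 0.68 in pMos against intMos (edgeR adjusted p = 0.0506). The adjusted p was under the threshold in 7 of 20 alternatives, among them the fit with the replicate number as a block (2.93, edgeR adjusted p = 0.0277) and libraries 1 and 2 alone (2.54, edgeR adjusted p = 0.0043). Rps2 had the lowest change, -0.57 with an interval of -1.01 to -0.14 (edgeR adjusted p = 0.141). The block gave Rps2 -0.58 (edgeR adjusted p = 0.172), and libraries 1 and 2 alone gave it -0.71 (edgeR adjusted p = 0.00854). Below 0 followed Rpl10a at -0.43, Rpl22l1 at -0.39 and Rpl3 at -0.32, and above 0 stood Rps27 at 0.25, Rpl9 at 0.12 and Rpl7l1 at 0.11. None of these passed the test with all 9 libraries. With libraries 1 and 2 alone, Rpl10a was called as well (-0.37, edgeR adjusted p = 0.0468). That fit called 1053 of 14179 genes higher and 1371 lower. With its copy Rpl10a-ps1 added, the change of Rpl10a over all 9 libraries was -0.19 (edgeR adjusted p = 0.494). The block gave the row of Rpl10a -0.42 (edgeR adjusted p = 0.0819).

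Intermediate against conventional monocytes showed no called member either, although the comparison was rich in changed genes. The count was 0 of 84 higher and 0 lower in edgeR's test, where 24.4% of all tested genes were called (14% higher and 10.4% lower). At an unadjusted p under 0.05 there were 5 of 84 members, against 5285 of all 14059 tested genes. DESeq2 called 2 members lower, Rpl5 and Rps27l, where it called 1954 of 16338 genes lower. Without cMo 1, edgeR called 4 members lower, namely Rpl5, Rpl8, Rpl14 and Rps27l, where it called 1357 of 14331 genes lower. The median change was -0.08, with quartiles of -0.18 and 0.01, and 62 of 84 members lay below 0, against 50.6% of all genes. The interval stayed within a log2 of 1 for 81 members (96.4%), against 49.7% of all genes. The intMo libraries lay below all cMo libraries for 4 members (Rpl5, Rpl28, Rps19bp1 and Rps27l) and above them for Rps27, against 20.1% and 21.2% of all tested genes.

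Rps27l had the lowest change of intMos against cMos, -0.55 with a standard error of 0.18 (edgeR adjusted p = 0.0563). Without cMo library 1 its adjusted p was 0.0217, and libraries 1 and 2 alone gave -0.33 (edgeR adjusted p = 0.176). The row of Rpl27 followed at -0.46, with a wide interval of -1.50 to 0.58, and with its copies added the change was -0.11 (edgeR adjusted p = 0.646). Rpl27 had 54.8, 30.3 and 27.8 CPM in the intMo libraries and 87.3, 31.4 and 36.1 CPM in the cMo libraries, so library 0 was highest in both subsets. Rps19bp1 was at -0.40 (10.3 ± 0.774 CPM in intMos and 13.7 ± 1.74 CPM in cMos, SD, n = 3 each) and the row of Rpl5 at -0.39, neither called. With its copies added, Rpl5 was at -0.23 (edgeR adjusted p = 0.302). Above 0 stood Rps27 at 0.34 and Rps29, of the small subunit, at 0.29, with an interval of -0.18 to 0.76. Rps9, also of the small subunit, followed at 0.16, and Rpl37a, of the large subunit, at 0.15.

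The 3 comparisons share libraries, so they are not independent of each other. Rps27 was above 0 in each of them, at 0.58 in pMos against cMos, 0.25 in pMos against intMos and 0.34 in intMos against cMos. Rps2 was below 0 in each, at -0.98, -0.57 and -0.40 in the same order.

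In the remaining pairs no paralog was called in any comparison. Rpl22l1 took 24.6, 22.6 and 21.6% of the counts of Rpl22 plus Rpl22l1 in the pMo libraries, 26.8, 28.6 and 23.5% in the intMo libraries and 25.4, 21.3 and 23% in the cMo libraries, and these ranges overlapped. Rpl22 is an RNA-binding large subunit protein needed by developing T cells in mice, and it represses Rpl22l1. The row of Rpl36al took 54.9 ± 0.673% of its pair with the row of Rpl36a in pMos, 51 ± 1.81% in intMos and 52.3 ± 0.489% in cMos. Its log2 ratio was 0.15 higher in pMos than in cMos and 0.23 higher in pMos than in intMos (p = 0.1 each, adjusted p = 0.257, two-sided exact permutation test). The row of Rpl36a held only 61.8% of its family, and its copy Rpl36a-ps2 averaged 104 CPM. These shares and ratios are therefore of rows, and they do not show which gene of the pair is the more abundant. Rpl7l1, a paralog linked to ribosome assembly, took 9.66 ± 0.733% of its pair with Rpl7 in pMos, 9.26 ± 1.01% in intMos and 10.7 ± 1.31% in cMos. Rps27rt took 1.29, 0.503 and 0.247% of its pair with Rps27 in the pMo libraries, 1.43, 0.476 and 0.285% in the intMo libraries and 2.31, 0.192 and 0.71% in the cMo libraries, so library 0 held the highest share in each subset. Rpl39 and Rpl10, partners of the paralogs that were not tested, averaged 318 ± 25.6 and 209 ± 36.1 CPM in pMos, 328 ± 8.52 and 212 ± 22.5 CPM in intMos, and 323 ± 38.6 and 202 ± 33.9 CPM in cMos. Rps4x, an X-linked small subunit gene, averaged 1310 ± 132 CPM in pMos, 1390 ± 180 CPM in intMos and 1450 ± 228 CPM in cMos, and its paralog Rps4l was not among the members.

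In these genes, cMo 1 had the lowest summed level of the cMo libraries, and cMo 0 and cMo 2 were close. The members summed to 67300 CPM in cMo 0, 54100 CPM in cMo 1 and 66800 CPM in cMo 2. In cMos, library 0 was above the mean of libraries 1 and 2 for 68 of 84 members, with a median log2 difference of 0.18. That mean takes in the low cMo 1, so it does not show library 0 above both others. In pMos and intMos it was above for 45 and 44 members, with medians of 0.03 and 0.02. The members of short transcripts (24 members under 600 bases) had a median difference of 0.13 in pMos, 0.06 in intMos and 0.22 in cMos, against -0.01, 0.00 and 0.17 for the longer ones. Rps27rt had the highest difference in every subset, up to a log2 of 2.43 in cMos.

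Near-identical copies take part of the counts of many members. By sequence search, 475 other rows matched a member at 95% identity or more over at least 70% of the coding sequence, and 76 members had such a copy. Of those rows 460 are annotated as pseudogenes and 13 as protein coding, and 120 were tested. In pMos against cMos 6 of the 120 rose and 3 fell, in pMos against intMos 0 rose and 0 fell, and in intMos against cMos 7 rose and 0 fell, with median changes of -0.10, -0.04 and -0.10. Over all tested genes, 17.2% rose and 15.9% fell, 3.29% rose and 1.69% fell, and 14% rose and 10.4% fell, in the same order. For 7 members the gene's own row held the smaller part of the summed counts, and these were named after their values were seen. The row of Rpl5 held 2.89% of its family, in which Gm15500 averaged 1160 CPM with a matching stretch 100% identical to the gene. For Rpl12 it was 3.88% (the main copy being Gm10275), for Rpl27 10.3% (Rpl27-ps3), for Rpl10 15.7% (Rpl10-ps3), for Rpl27a 35.2%, for Rps23 38.3% and for Rps12 42.7%. Levels of these 7 rows are therefore not levels of the genes.

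**Figure D5:**
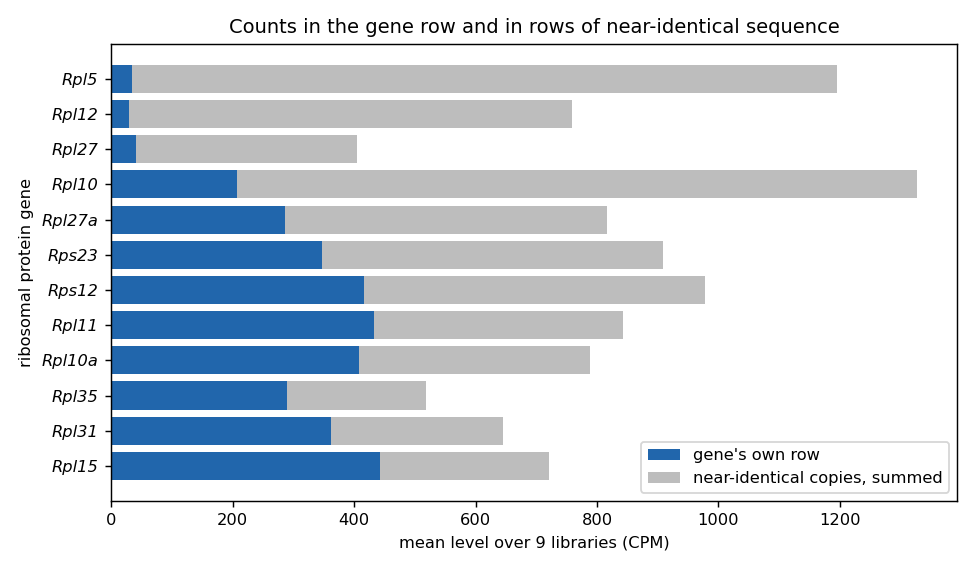
Mean level over all 9 libraries, in CPM, of the 12 members whose own row (blue) holds the smallest part of its family, with the summed level of near-identical rows added to the right (grey). The blue part is short for Rpl5, Rpl12, Rpl27 and Rpl10, at 2.89, 3.88, 10.3 and 15.7% of the family.

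With the counts of the copies added to each member, Rps2 stayed called in pMos against cMos (-0.97, edgeR adjusted p = 0.00491). Its own row held 98.9% of its family, so little was added. For Rps27 (0.58, edgeR adjusted p = 0.0118) the step could change almost nothing. The copies added to it averaged 0.0117 CPM, and the identical Rps27rt, itself a member, was not among them. Rpl36a, which held 61.8% of its family, lost its call (-0.39, edgeR adjusted p = 0.0681). Rps12 gained one, at -0.39 (edgeR adjusted p = 0.047). The members together with their copies took 6.17 ± 0.117% of all counts in pMos, 6.84 ± 0.272% in intMos and 7.35 ± 0.757% in cMos (SD, n = 3 each).

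Ribosomal proteins that the symbol rule leaves out were close in level too. Fau, which encodes a ribosomal protein fused to a ubiquitin-like protein, and Rack1, a scaffold on the small subunit, were not called in any comparison, and their changes of pMos against cMos were 0.20 and -0.12. Among 18 translation factors and related genes, many with TOP mRNAs, 0 rose and 2 fell in pMos against cMos, 0 rose and 0 fell in pMos against intMos, and 0 rose and 1 fell in intMos against cMos, with median changes of -0.12, -0.02 and -0.11. The 11.1% called lower in pMos and the 5.56% in intMos are below the 15.9% and 10.4% of all tested genes. The 2 that fell in pMos were Hnrnpa1, an RNA-binding protein, at -0.92 (edgeR adjusted p = 0.00799) and Nap1l1, a histone chaperone, at -0.64 (edgeR adjusted p = 0.0151). The elongation factor gene Eef1a1 averaged 7880 ± 127 CPM in pMos and 8680 ± 585 CPM in cMos, a change of -0.14 that was not called.

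Among 30 initiation factors and regulators of translation, 1 rose and 4 fell in pMos against cMos, 0 rose and 0 fell in pMos against intMos, and 0 rose and 5 fell in intMos against cMos, with median changes of -0.22, 0.08 and -0.30. The shares called in pMos against cMos, 3.33% higher and 13.3% lower, were no larger than the 17.2% and 15.9% of all tested genes, and the 16.7% lower in intMos against cMos stands beside 10.4% of all tested genes. Eif5a, which helps ribosomes past stalling sequences, fell by 1.04 on the log2 scale in pMos (358 ± 10.3 CPM, against 739 ± 233 CPM in cMos, edgeR adjusted p = 0.00523). Eif1, which guards start codon choice, rose by 0.45 (463 ± 16.5 CPM in pMos and 340 ± 24.2 CPM in cMos, edgeR adjusted p = 0.0199).

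Genes of the mitochondrial ribosome, which translates the mRNAs of the mitochondrial genome, were mostly lower in pMos and intMos than in cMos. Of the 78 tested, 23 fell and 1 rose in pMos against cMos, 0 rose and 0 fell in pMos against intMos, and 11 fell and 1 rose in intMos against cMos. The 23 are 29.5% of the list, where 15.9% of all tested genes were called lower, and the 11 are 14.1%, near the 10.4% of all tested genes. The medians were -0.37, -0.08 and -0.33, and 73 of 78 lay below 0 in each of the comparisons against cMos. Mrpl18, of the mitochondrial large subunit, had 42.9 ± 5.37 CPM in pMos and 82.9 ± 13.1 CPM in cMos (-0.95, edgeR adjusted p = 0.00489). Mrpl52, also of the large subunit, was the one that rose, with 80.7 ± 18 CPM in pMos and 30.4 ± 3.4 CPM in cMos (1.41, edgeR adjusted p = 0.000894). The difference between the 2 ribosomes was not tested. Summed cycling markers were also lower in pMos and intMos than in cMos, with 8 of 8 called lower in pMos and 3 of 8 in intMos. A link between the 2 observations was not tested.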

How the data were processed

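RNA-seq libraries of 3 monocyte subsets, 3 each, were grouped by their sample titles. RNAzol was used for extraction and a stranded mRNA kit (NEBNext Ultra II) for the libraries, per the labels' protocols. The authors deposited estimated counts per gene, and the submitters' processing notes name kallisto 0.46.1 and mm10. Annotation, gene-level summing, filters and strand setting are not stated in the sources used here. Symbols, biotypes and coordinates come from GENCODE M21 (GRCm38), which matched 46005 of 46517 row IDs and left 512 unmatched. All value columns belonged to the 9 samples.

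Counts were rounded to whole numbers, filtered with filterByExpr by subset (14059 genes kept) and normalised with TMM factors. One model over all 9 libraries was fitted in edgeR 4.0.16 (quasi-likelihood F test, robust, R 4.3.3), and a gene was called when its p, adjusted by Benjamini-Hochberg over all genes tested, was under 0.05. CPM use library sizes multiplied by the TMM factors. Standard errors were derived from the log2 change and F, and 95% intervals from the matching t quantile. Levels per kilobase used the median length of basic protein coding transcripts. Totals of 18455116 to 29985684 counts per library set the precision, and counts without molecular identifiers cover counting error only. Paralog ratios were compared by two-sided exact permutation tests over libraries, 18 in all over 6 pairs. Near-identical copies were found with blastn 2.17.0 at 95% identity over 70% of a coding sequence, a step added after seeing the data. The fit was tested on simulated data with 200 changed genes.

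The 20 alternatives changed the scaling (RLE, upper quartile, totals, TMM without the members), the filter (none, or 1 CPM in 3 libraries), rounding, the tool (DESeq2 1.42.0), the replicate number as a block, or left out libraries (each in turn, or all 3 numbered 0), and 1 added the copies. The genes named were the 4 highest and 4 lowest changes per comparison among members of at least 10 CPM, all listed paralog pairs, members with known roles, and the 3 highest levels per kilobase. Rps20, Rpl8, Rpl28, Rpl12, Rpl27a, Rps23 and Rps12 and the examples from other lists were named after their values were seen. Some genes are not reported here. The labels do not say what the replicate number marks. Same-numbered intMo and pMo libraries deviated together from their subset means in all 3 pairs (r over all genes 0.588, 0.3 and 0.274). The calls of that comparison and the changes of Rpl3l, Rps2 and Rpl10a in it are therefore also given with the number as a block. Over all genes, pairs with cMos did not all exceed 0.1. Over the tested members alone, r was 0.82, 0.233 and 0.277 for same-numbered pMo and cMo libraries. For same-numbered intMo and cMo libraries it was 0.679, 0.216 and -0.354. Libraries of unlike number also deviated together in the members, with 0.806 for cMo 1 and intMo 2. The main fit had subset as its only factor and used no pairing in any comparison. Members and lists were chosen with earlier results of these data known.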

Additional observations from a re-analysis of the deposited data

How the results depend on the processing

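The median change of the members kept its sign under all 20 alternatives, from -0.24 to -0.07 in pMos against cMos, from -0.12 to -0.02 in pMos against intMos and from -0.17 to -0.02 in intMos against cMos. Leaving out 1 library gave a share of counts of 5.32 to 5.44% in pMos, 5.84 to 6.07% in intMos and 6.17 to 6.79% in cMos. In pMos against cMos, 1 to 2 members were called higher and 1 to 14 lower when 1 library was left out, and the number lower was 20 with library totals only, 4 with no filter and 4 with libraries 1 and 2 alone, against 7. In pMos against intMos, leaving out 1 library gave 0 to 1 higher and 0 to 1 lower. There 1 was called higher with no filter, with libraries 1 and 2 alone, with copies added or with DESeq2, and 2 lower with libraries 1 and 2 alone, against 0. Calls rose over all genes with libraries 1 and 2 alone, to 1053 higher and 1371 lower of 14179, against 463 and 238 in the main fit. In intMos against cMos, the number lower was 0 to 4 when 1 library was left out, 1 with RLE scaling, 1 with library totals only and 2 with DESeq2, against 0. The cause of these changes was not tested. A filter with more genes tested or a fit with fewer libraries changes the adjustment by its construction, and the lone pair left in a subset is assumed to vary like the others.

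The replicate number as a block gave 1 member higher in pMos against intMos (Rpl3l), against 0, and 2 higher and 7 lower in pMos against cMos, where Rps20 was among those that lost a call and Rpl10a and Rpl27 gained one. Correlations of deviations over all genes were 0.179, -0.0156 and 0.23 for same-numbered pMo and cMo libraries and 0.0657, -0.143 and -0.0694 for intMo and cMo libraries, while all 3 of intMo and pMo exceeded 0.1, although intMo 1 correlated more with pMo 2 (0.403) than with pMo 1 (0.3).

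The log2 changes of 43 named results reversed in at least 1 alternative. None of the 43 was called with all libraries, where the lowest edgeR adjusted p was 0.432. Ranges when 1 library was left out were, in pMos against cMos, Rpl10 -0.09 to 0.18, Rpl11 -0.33 to 0.08, Rpl27 -0.93 to 0.10, Rpl39 -0.12 to 0.05, Rpl7 -0.09 to 0.15, Rpl9 -0.06 to 0.15, Rplp2 -0.28 to 0.04, Rps27rt -0.72 to 0.98, Rps29 -0.07 to 0.21 and Rps9 -0.10 to 0.04. In pMos against intMos they were Rpl10 -0.16 to 0.09, Rpl11 -0.28 to 0.07, Rpl22 -0.19 to 0.02, Rpl23 -0.06 to 0.08, Rpl27 -0.48 to 0.33, Rpl36al -0.12 to 0.03, Rpl37a -0.12 to 0.01, Rpl39 -0.10 to 0.02, Rpl7 -0.05 to 0.21, Rplp0 -0.09 to 0.01, Rplp2 -0.20 to 0.10, Rps19 -0.00 to 0.16, Rps27rt -0.54 to 1.02, Rps4x -0.15 to 0.02, Rps6 -0.11 to 0.07 and Rpsa -0.09 to 0.04. In intMos against cMos they were Rpl10 -0.04 to 0.20, Rpl10a -0.38 to 0.03, Rpl11 -0.21 to 0.14, Rpl13a -0.16 to 0.03, Rpl22l1 -0.07 to 0.18, Rpl27 -0.82 to 0.15, Rpl34 -0.05 to 0.14, Rpl39 -0.07 to 0.08, Rpl3l -0.72 to 0.64, Rpl7 -0.19 to 0.12, Rpl9 -0.18 to 0.01, Rplp1 -0.10 to 0.10, Rplp2 -0.18 to 0.08, Rps27rt -1.07 to 0.86 and Rps4x -0.17 to 0.08.

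With libraries 1 and 2 alone, the reversed values were Rpl39 0.04 and Rps27rt 0.34 (pMos against cMos), Rpl10 0.16 and Rpl23 0.04 (pMos against intMos), and Rpl10 -0.01, Rpl11 0.02, Rpl13a 0.04, Rpl3 0.00, Rpl7 0.06, Rpl9 0.06 and Rplp1 0.07 (intMos against cMos). With library totals only they were Rpl10 -0.04, Rpl7 -0.07, Rpl9 -0.03 and Rps29 -0.04 (pMos against cMos) and Rpl26 -0.03 and Rpl7 -0.04 (pMos against intMos). With upper quartile scaling they were Rpl26 -0.00 and Rpl7 -0.02 (pMos against intMos) and Rpl11 0.00, Rpl13a 0.01, Rpl7 0.04 and Rplp1 0.05 (intMos against cMos). With copies added they were Rpl11 0.02 and Rpl27 0.09 (pMos against intMos), with the block Rps27rt 0.08 (pMos against cMos), Rpl3l -0.04 and Rplp1 0.00 (intMos against cMos), and with the filter at 1 CPM Rpl7 0.02 and Rplp1 0.02 (intMos against cMos).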

Other observations

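Further genes of the translation machinery changed against cMos. Eif4g2, a relative of the initiation scaffold that lacks the cap binding site, fell in intMos (590 ± 59.8 CPM, against 847 ± 67.1 CPM in cMos, log2 change -0.52, edgeR adjusted p = 0.0165). Eif4e, the cap binding protein, fell in intMos as well (-0.67, edgeR adjusted p = 0.033), and in pMos its change was -0.47 (edgeR adjusted p = 0.0887). Eif1ax, which works with Eif1 in scanning, fell in pMos (-0.61, edgeR adjusted p = 0.0496) and in intMos (-0.65, edgeR adjusted p = 0.0488). Eif2b1, a subunit of the factor that recharges eIF2, fell in pMos (-0.46, edgeR adjusted p = 0.0366) and in intMos (-0.48, edgeR adjusted p = 0.0389). Among mitochondrial ribosomal proteins, Mrpl33 had 77.7 ± 11.8 CPM in pMos, 70.7 ± 17.3 CPM in intMos and 140 ± 14.7 CPM in cMos (SD, n = 3 each), and it fell in pMos (-0.85, edgeR adjusted p = 0.0103) and in intMos (-0.99, edgeR adjusted p = 0.00774). Both comparisons use the same cMo libraries.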
